A study of Mus musculus with 6 samples.

Results

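The genes described here are the *Sp100*-*Sp140* cluster of mouse chromosome 1, namely *Sp100*, *Sp110*, *Sp140*, *A530032D15Rik* and *Gm10552*. They were picked by symbol through the GRCm38 annotation and make up 5 of the 47729 genes in the deposited table. All 5 averaged 20 reads or more per library, as did 19308 genes in all, which are called the tested genes below. *Gm10552* passed this limit through the LS1 libraries alone. The genes were chosen with the difference between the lines already known, so their values in the 2 lines are given as a description, with no p-value.

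Gene expression was measured by RNA sequencing in the proximal epiphysis of the tibia at 14 days of age, in 3 mice of the Control line and 3 of LS1. LS1 (Longshanks 1) is a line selectively bred for tibiae that are long for the body mass, and Control (ICR) is the random-bred line that shares its origin. Each library came from 1 mouse with both epiphyses pooled, and the mice of a line belonged to different families. The labels give no treatment, so the comparison is between 2 breeding populations of an outbred stock. The tissue held cartilage, bone and marrow, and with bulk RNA fewer cells of a type and less RNA per cell cannot be told apart.

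SP100 is a constituent of promyelocytic leukemia (PML) nuclear bodies, small protein assemblies in the nucleus that take part in antiviral defence and chromatin regulation. SP100, SP110 and SP140 share an N-terminal HSR domain through which they bind one another, and a SAND domain that binds DNA, and some of their forms also carry a PHD finger and a bromodomain, domains that read histone marks. Their genes are known to be induced by interferon, and SP140 is known mainly from lymphocytes and macrophages. In the mouse the genes lie next to a long-range repeat of partial copies and pseudogenes of the family, the HSR cluster, whose size is known to vary among mice.

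In GRCm38 the annotated genes stretched over chr1:85083069-85709998. *A530032D15Rik* (ENSMUSG00000089844), a protein-coding relative of *Sp140*, lay first, at chr1:85083069-85109853 on the minus strand. *Sp110* (ENSMUSG00000070034) lay at chr1:85576899-85598817 on the minus strand, *Sp140* (ENSMUSG00000070031) at chr1:85600378-85645037 on the plus strand, and *Sp100* (ENSMUSG00000026222) at chr1:85649988-85709998 on the plus strand. *Gm10552* (ENSMUSG00000073628), annotated as an antisense RNA, lay inside *Sp140* at chr1:85604085-85611896 on the minus strand. RefSeq draws a longer *Sp110* on the same strand, whose span covers 6766 of the 7812 bases of *Gm10552*.

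The promoters of *Sp140* and *A530032D15Rik* are shown because they let a reader see how close the copies are. Over 271 aligned bases (RefSeq, GRCm38.p6), 270 were identical, and the capital marks the base that differs.
A530032D15Rik, chr1:85109804-85110074, minus strand: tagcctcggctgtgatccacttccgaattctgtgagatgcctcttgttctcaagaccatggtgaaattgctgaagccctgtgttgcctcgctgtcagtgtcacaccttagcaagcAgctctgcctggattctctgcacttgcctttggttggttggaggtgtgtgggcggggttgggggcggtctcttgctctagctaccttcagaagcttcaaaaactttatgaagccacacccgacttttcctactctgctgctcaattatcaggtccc
Sp140, chr1:85600453-85600723, plus strand: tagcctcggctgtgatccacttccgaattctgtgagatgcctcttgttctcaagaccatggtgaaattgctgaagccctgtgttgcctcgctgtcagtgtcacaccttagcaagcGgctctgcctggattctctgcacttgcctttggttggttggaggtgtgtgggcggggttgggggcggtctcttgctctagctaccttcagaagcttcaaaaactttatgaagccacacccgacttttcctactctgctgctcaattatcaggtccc
Identity was 99.6% for this pair and 97.0% over 262 bases between *Sp140* and *C130026I21Rik*, a coding gene that overlaps *A530032D15Rik* on the same strand. The next closest promoter within 1 Mb, that of *Psmd1*, had 37.1% identity. *Gm10552* has no sequence printed here.

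The promoters of *Sp100* and *Sp110* are shown for a pair of GAAA repeats, a letter pattern close to the interferon-stimulated response element. The capitals mark GAAA followed, after 3 bases of any kind, by GAAA again, found here on the opposite strand.
Sp100, chr1:85649738-85650037, plus strand: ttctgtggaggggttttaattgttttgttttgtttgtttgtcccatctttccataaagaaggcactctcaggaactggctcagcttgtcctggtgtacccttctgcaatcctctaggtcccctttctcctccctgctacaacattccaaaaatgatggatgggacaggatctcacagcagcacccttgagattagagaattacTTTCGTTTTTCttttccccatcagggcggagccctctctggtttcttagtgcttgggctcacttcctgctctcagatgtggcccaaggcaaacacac
Sp110, chr1:85598761-85599060, minus strand: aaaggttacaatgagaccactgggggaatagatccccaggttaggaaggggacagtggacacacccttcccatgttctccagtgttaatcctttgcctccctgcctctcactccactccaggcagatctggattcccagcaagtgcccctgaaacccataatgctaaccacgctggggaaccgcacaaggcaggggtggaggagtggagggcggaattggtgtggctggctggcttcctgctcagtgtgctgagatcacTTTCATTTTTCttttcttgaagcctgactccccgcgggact
The match began at position -47 from the start site of *Sp100* and at position 9 of *Sp110*. This pattern, chosen after the sequences were seen, was present in 2.75% of all 32851 RefSeq promoter windows on either strand. The same repeat with 2 bases between was in 3.44% of windows, and the GAS pattern (gamma-activated sequence) of TTC and GAA with 3 bases between in 8.30%, and no promoter of the cluster held either. RefSeq gives *Sp110* a further start site, whose window at chr1:85603842-85604141 held none of the 3 patterns. The windows of *Sp140* and *A530032D15Rik* held none of the 3 patterns. A match is a description of the letters only.

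The libraries held 68803249 to 76581954 reads in Control (median 70601296) and 82227711 to 88745366 in LS1 (median 83544359). The leading principal component over the tested genes took up 35.1% of the variance. Along it Control libraries lay from -41.51 to -22.08, LS1 replicates 1 and 2 at 43.67 and 50.06, and LS1 replicate 3 between them at -4.29. For that reason the log2 fold change of each cluster gene is also given without LS1 replicate 3. The same holds for the number of genes called among the relatives, interferon-stimulated genes, PML genes and flanking genes. Values of other single genes and of the marker lists are from all libraries unless stated. The chondrocyte markers summed to 2435120 to 2802830 normalized counts in Control and to 3236920 to 3694700 in LS1, with none of the 8 at 0, so cartilage was present in every library. All marker lists for the other cell types also had reads in every library.

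In the unselected Control epiphysis *Sp100* was the most abundant gene of the cluster. Per kilobase of annotated exon its level was 438 ± 15.3 normalized counts (SD, n = 3), followed by *Sp140* at 203 ± 13.8, *Sp110* at 159 ± 19.5, *A530032D15Rik* at 78.4 ± 10.4 and *Gm10552* at 6.83 ± 6.03. Among the tested genes these levels per kilobase ranked at percentiles 60.5, 43.8, 39.6, 28.7 and 2.88, so *Sp100* stood a little above the middle and *Gm10552* near the bottom. The Control libraries of neighbours in this order did not overlap.
In LS1 the order per kilobase was different. *Sp100* remained first at 644 ± 225 (SD, n = 3), while *A530032D15Rik* at 193 ± 41.8, *Sp110* at 191 ± 58.8 and *Sp140* at 189 ± 67.4 could not be ranked within their spread. *Gm10552* was last at 76.8 ± 24.1. The coding relative of *Sp140*, the least abundant coding gene of the cluster in Control, thus had a mean level per kilobase in LS1 close to those of *Sp110* and *Sp140*.

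**Figure D1:**
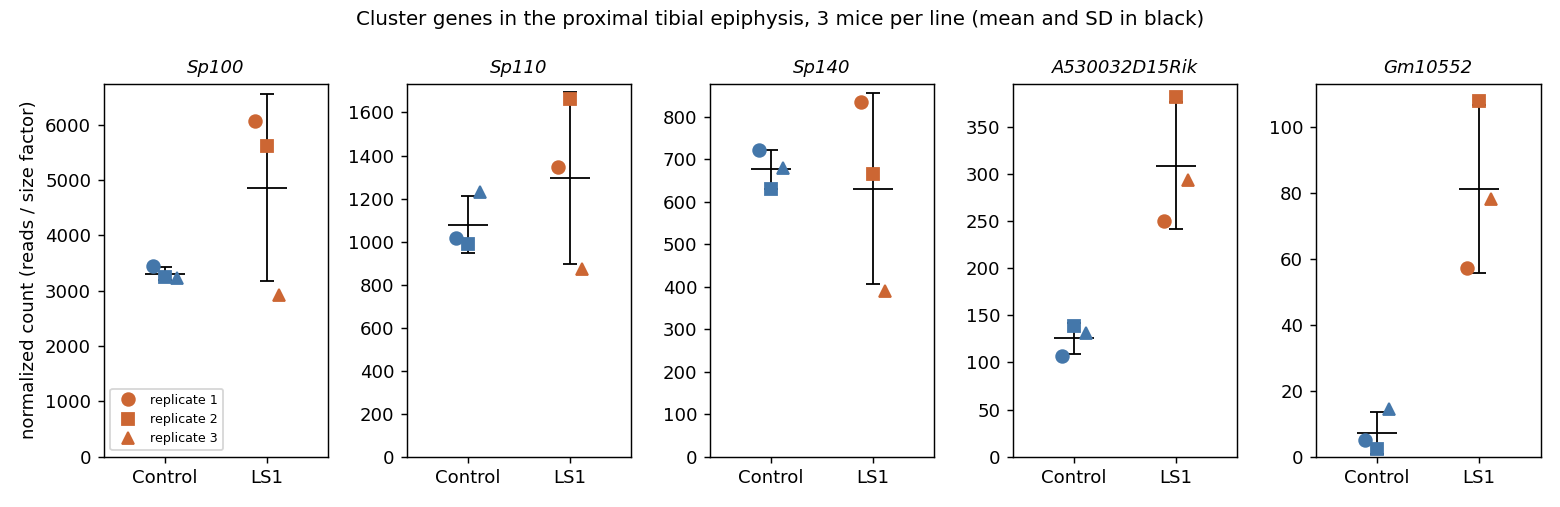
Normalized count (reads divided by the size factor of the library) of each cluster gene in Control (blue) and LS1 (orange), with 1 symbol per mouse and the mean and SD in black; each panel has its own axis from 0. LS1 replicate 3 (triangle) is the lowest of all 6 libraries for *Sp100*, *Sp110* and *Sp140*, while all LS1 libraries lie above all Control libraries for *A530032D15Rik* and *Gm10552*.

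*Sp100*, the PML body constituent, had normalized counts of 3445, 3252 and 3239 in the Control libraries. In LS1 replicates 1, 2 and 3 it had 6061, 5614 and 2923. LS1 replicates 1 and 2 were high and close to each other, LS1 replicate 3 was lower than every Control library, and the groups overlapped. The means were 3312 ± 115 in Control and 4866 ± 1697 in LS1 (SD, n = 3 each). The log2 fold change, on the log2(value + 1) scale used throughout, was 0.48 (standard error 0.24), and it was 0.82 without LS1 replicate 3.

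*Sp110*, which in the mouse lies in a locus known for resistance to tuberculosis, had 1018, 988 and 1230 normalized counts in Control and 1346, 1665 and 873 in LS1. The groups overlapped, again with LS1 replicate 3 lowest. The log2 fold change was 0.22 (standard error 0.23) and was 0.48 without LS1 replicate 3. *Sp140*, the lymphoid and myeloid member, had 721, 630 and 679 normalized counts in Control and 835, 666 and 391 in LS1. Its groups overlapped as well, and LS1 replicate 2 lay inside the Control range. Its log2 fold change was -0.17 (standard error 0.26) and turned to 0.14 without LS1 replicate 3.

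*A530032D15Rik* had 107, 139 and 132 normalized counts in Control and 250, 382 and 294 in LS1. Each LS1 library, replicate 3 included, exceeded the highest Control library. The mean was 2.46-fold higher in LS1, at 309 ± 67.1 against 126 ± 16.6 (SD, n = 3 each), and the log2 fold change was 1.28 (standard error 0.26) with all libraries and 1.30 without LS1 replicate 3.

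*Gm10552* had 5, 2 and 13 reads in the Control libraries and 60, 124 and 84 reads in LS1. As normalized counts these were 5.04, 2.22 and 14.4 in Control and 57.1, 108 and 78.4 in LS1, and the groups did not overlap. The mean was 7.21 ± 6.36 in Control and 81.1 ± 25.5 in LS1 (SD, n = 3 each), an 11.2-fold ratio of means, although counting error is large at the few Control reads. The log2 fold change was 3.57 (standard error 0.59), again 3.57 without LS1 replicate 3, and 2.90 with a pseudocount of 5.

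So 2 of the 5 genes had every LS1 library above every Control library. Among all tested genes 10.3% had this pattern. Since the genes were chosen on this contrast, nothing is read from the 2 of 5.

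The balance between the genes within a library is described here by ratios of their normalized counts. The genes were chosen on this contrast, so nothing is read from whether a ratio overlaps between the lines. For every 100 normalized counts of *Sp100* there were 20.9, 19.4 and 20.97 of *Sp140* in Control and 13.8, 11.9 and 13.4 in LS1. The means were 20.4 ± 0.919 and 13.0 ± 1.01 (SD, n = 3 each), and LS1 replicate 3 lay between LS1 replicates 1 and 2. Of the 35-base pieces of the transcripts, 58.2% in *Sp140* and 7.35% in *Sp100* also occurred in a gene at another place. Ratios with *Sp140* are therefore uncertain, and no property of a line is read from them. The ratio of *Sp110* to *Sp100* overlapped between the lines, with 29.6, 30.4 and 37.98 in Control and 22.2, 29.7 and 29.9 in LS1.
Against *Sp140*, *A530032D15Rik* made up 14.8, 22.01 and 19.4 per 100 in Control and 29.99, 57.4 and 75.2 in LS1. *Gm10552* made up 0.699, 0.352 and 2.12 per 100 *Sp140* in Control and 6.84, 16.2 and 20.05 in LS1. Per 100 normalized counts of *Sp110*, the gene of its own strand, *Gm10552* reached 0.496, 0.224 and 1.17 in Control and 4.24, 6.48 and 8.97 in LS1. These ratios of the antisense RNA to both coding genes did not overlap between the lines, which restates the higher *Gm10552* counts of LS1. The ratios were highest in LS1 replicate 3, where the coding genes were lowest.

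**Figure D2:**
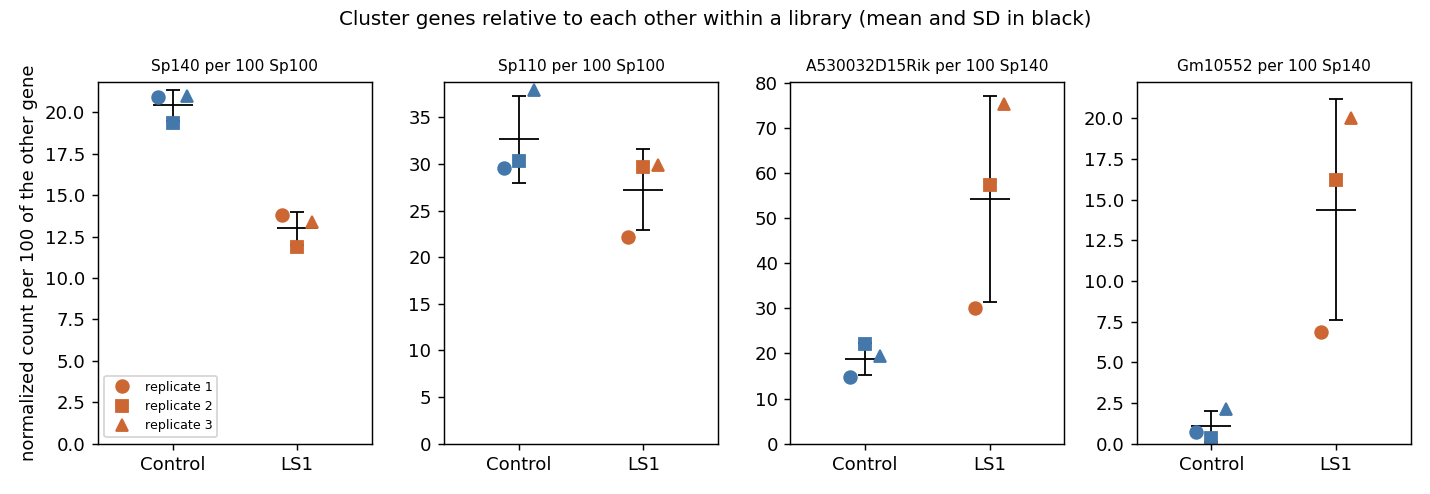
Normalized count of a cluster gene for every 100 of another gene in the same library, in Control (blue) and LS1 (orange), with 1 symbol per mouse and mean and SD in black. The ratio of *Sp140* to *Sp100* is 20.4 ± 0.919 in Control and 13.0 ± 1.01 in LS1, the ratio of *Sp110* to *Sp100* overlaps, and both ratios to *Sp140* are higher in all LS1 libraries.

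The 46 genes of an interferon-stimulated list were looked at because the SP genes belong to that response. All 46 had a positive log2 fold change, with a median of 1.25 against 0.005 over all tested genes. None was called by limma, that is, none passed an adjusted p-value of 0.05, which 0.0725% of the tested genes did in either direction. At an unadjusted p-value of 0.05 from limma 11 passed, all higher in LS1, against 7.08% of the tested genes higher at that level. At the same unadjusted level edgeR passed 38 and DESeq2 37 of the 46, where 2547 and 2687 of all 19308 tested genes passed. DESeq2 on the recovered reads called 13 of the 46, all higher in LS1, against 2.51% of its genes in either direction, and edgeR called 0, against 0.0363%. Without LS1 replicate 3, the LS1 library nearest to Control on the leading principal component, limma called 28, against 1.68%. Without LS1 replicate 1 or 2 limma called 0, where 46 and 12 of all 19308 tested genes were called. At an unadjusted p-value of 0.05 from limma 43 of the list passed without LS1 replicate 3. Without replicate 1 or 2 these were 1 and 9. Of all 19308 tested genes 3225, 2348 and 2098 passed without LS1 replicates 3, 1 and 2. Set against the mean of the Control libraries, the median of these 46 genes was 1.32 in LS1 replicate 1, 2.53 in replicate 2 and 0.02 in replicate 3 on the log2 scale.
*Sp100* on the same scale was at 0.87, 0.76 and -0.18 in these libraries and *Sp110* at 0.33, 0.63 and -0.30. Both were above the Control mean in LS1 replicates 1 and 2 and below it in replicate 3. The list was higher in replicate 2 than in replicate 1, while *Sp100* was not. LS1 replicate 3 also lay apart from its line on the leading principal component over all tested genes. A link of the SP genes to the interferon response was not tested. *Sp140* was at 0.31, -0.02 and -0.79. *A530032D15Rik* at 1.00, 1.61 and 1.23 and *Gm10552* at 3.12, 4.03 and 3.57 were as high in LS1 replicate 3 as in replicate 1 or higher.

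**Figure D3:**
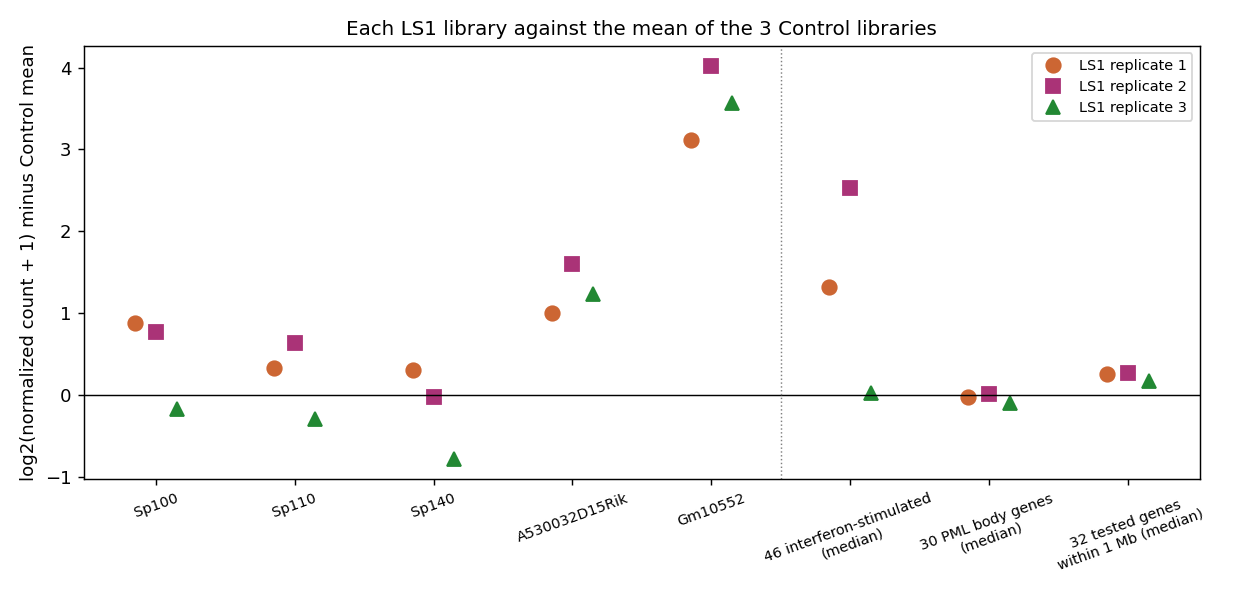
Each LS1 library relative to the mean of the 3 Control libraries, as log2(normalized count + 1), for the cluster genes (left) and as medians over 3 gene lists (right). The interferon-stimulated list is at 1.32, 2.53 and 0.02 in LS1 replicates 1, 2 and 3; LS1 replicate 3 is below 0 for *Sp100*, *Sp110* and *Sp140* but at 1.23 for *A530032D15Rik* and 3.57 for *Gm10552*.

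Of the interferon genes, the RNA sensor relatives *Oasl1*, *Oas2* and *Ifit2* had the smallest p-values. *Oasl1* went from 71.6, 45.5 and 52.0 normalized counts in Control to 199.97, 509.96 and 111 in LS1 (limma, adjusted p = 0.194). By limma the log2 fold change of *Oas2* was 2.17 (adjusted p = 0.279) and that of *Ifit2* 1.20 (adjusted p = 0.264). By limma *Irf7*, a regulator of the response, had a log2 fold change of 1.42 (adjusted p = 0.491) and *Isg15*, an effector, one of 1.39 (adjusted p = 0.429).

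Markers of immune cells that express SP genes varied between the same libraries. The 9 T and NK cell markers summed to 1971 to 2549 normalized counts in Control and to 2905 to 5972 in LS1, the highest in LS1 replicate 2. The 7 plasmacytoid dendritic cell markers, which include the interferon-stimulated *Bst2*, summed to 5007 to 5813 and to 6077 to 14051. The 12 macrophage markers summed to 33798 to 45700 and to 43318 to 51216, and the 9 B cell markers to 51596 to 54643 and to 31763 to 49389. None of these markers was at 0 in all libraries, and none was called by limma at an adjusted p-value of 0.05. The neutrophil, erythroid, osteoblast, osteoclast and endothelial lists had median log2 fold changes of 0.27, -0.52, 0.005, -0.004 and 0.09. The part of cell composition in the levels of the SP genes was not tested.

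The 30 genes of the PML nuclear body list, partners and modifiers of SP100, had a median log2 fold change of -0.04, against 0.005 over all tested genes, and 0 were called by limma, by DESeq2 or by edgeR. At an unadjusted p-value of 0.05 from limma 3 of the 30 passed, against 12.9% of all tested genes, among them *H3f3a*, which encodes the histone variant H3.3, and *Usp7*, a deubiquitinase. The log2 fold changes of these genes were -0.51 and -0.33 (limma, adjusted p = 0.329 and 0.330). *Pml* itself, the scaffold of the bodies, had 4758, 4920 and 4524 normalized counts in Control and 3384, 4709 and 3508 in LS1 (log2 fold change -0.31, adjusted p = 0.422 from limma). *Daxx* and *Atrx*, which place histone H3.3, differed by log2 fold changes of -0.03 and 0.14 (limma, adjusted p = 0.963 and 0.771).

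The relatives of the SP genes were taken from a list of 21 genes, most of them with an SP100-like or SAND domain or named as copies. The table held 18 of them, and 14 were tested. None was called by limma, 5 had an unadjusted p-value under 0.05 and 4 of these were higher in LS1, where the shares over all tested genes were 12.9% and 7.08%. All LS1 libraries exceeded all Control libraries in 4 of the 14, against 10.3% of the tested genes. *Gm16025*, one of these, passed the limit on reads through LS1 alone. DESeq2 called 1 of them, *Csprs*, and edgeR none.
*Csprs*, a component of the Sp100-related repeat, is placed by the annotation on a scaffold without a position on the chromosome, and RefSeq assigns it to chromosome 1. It had 43.4, 23.3 and 50.9 normalized counts in Control and 321, 520.4 and 134 in LS1, with every LS1 library above every Control library and an 8.30-fold ratio of means. The log2 fold change of *Csprs* from limma was 2.89 with a standard error of 0.48 (adjusted p = 0.0792). The adjusted p-value of *Csprs* lay between 0.00113 and 0.289 over the alternatives run with limma, the lowest without LS1 replicate 3. It was 1.44e-08 with DESeq2 and 0.106 with edgeR.

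The tested genes of the list that have a place on chromosome 1 had smaller log2 fold changes than *Csprs*. *C130026I21Rik* had 153, 157 and 180 normalized counts in Control and 217, 332 and 214 in LS1 (log2 fold change 0.61, adjusted p = 0.353 from limma). The pseudogenes *Gm7609* and *Gm16026* differed by log2 fold changes of 0.82 and 0.37 (limma, adjusted p = 0.347 and 0.729), and the noncoding *Gm16025* by 1.71 (limma, adjusted p = 0.293). *A530040E14Rik*, the antisense RNA that faces *A530032D15Rik* much as *Gm10552* faces *Sp140*, had 26.2, 33.3 and 53.1 normalized counts in Control and 60.9, 52.2 and 14.9 in LS1. Its groups overlapped and its log2 fold change was 0.02 (adjusted p = 0.994 from limma). *G730003C15Rik*, an antisense RNA elsewhere on the chromosome, had a log2 fold change of -0.53 (adjusted p = 0.687 from limma).
Among the listed genes outside the family, *Aire*, the regulator of self-antigen expression in the thymus, had a log2 fold change of 0.68. The transcription factor *Deaf1* had one of -0.13 (limma, adjusted p = 0.523 and 0.748 for *Aire* and *Deaf1*). *Gmeb1* and *Gmeb2*, which bind glucocorticoid modulatory elements, were lower in every LS1 library than in every Control library, a pattern of 8.94% of the tested genes, by small amounts (log2 fold changes -0.20 and -0.29, limma, adjusted p = 0.537 and 0.369). *Ski*, *Skil* and *Nfrkb* had log2 fold changes of -0.01, 0.18 and -0.17 (limma, adjusted p = 0.982, 0.604 and 0.636).

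Within 1 Mb on either side of the cluster the table held 79 further genes, of which 32 were tested. None was called by limma, DESeq2 or edgeR. At an unadjusted p-value of 0.05 from limma 8 passed, of which 7 were higher in LS1, against 7.08% of the tested genes higher at that level. All LS1 libraries exceeded all Control libraries in 8 of the 32, against 10.3%, and all were below in 3, against 8.94%. *C130026I21Rik*, *Gm7609* and *Gm16025* are among these 8 and were already counted among the relatives. The median log2 fold change was 0.18. The smallest p-values were those of the antisense RNA *Gm16028*, the pseudogene *Gm18342* and *Gm16025*, with log2 fold changes of 1.85, 1.03 and 1.71 (limma, adjusted p = 0.265, 0.284 and 0.293). *Gm16028* and *Gm16025* averaged under 20 reads in Control and passed the limit on reads through LS1, the line in which they were high. Of the 30 flanking genes that averaged 20 reads or more in Control, 6 had all LS1 libraries above. Among all 18845 tested genes with such a Control mean the share was 9.8%.

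**Figure D4:**
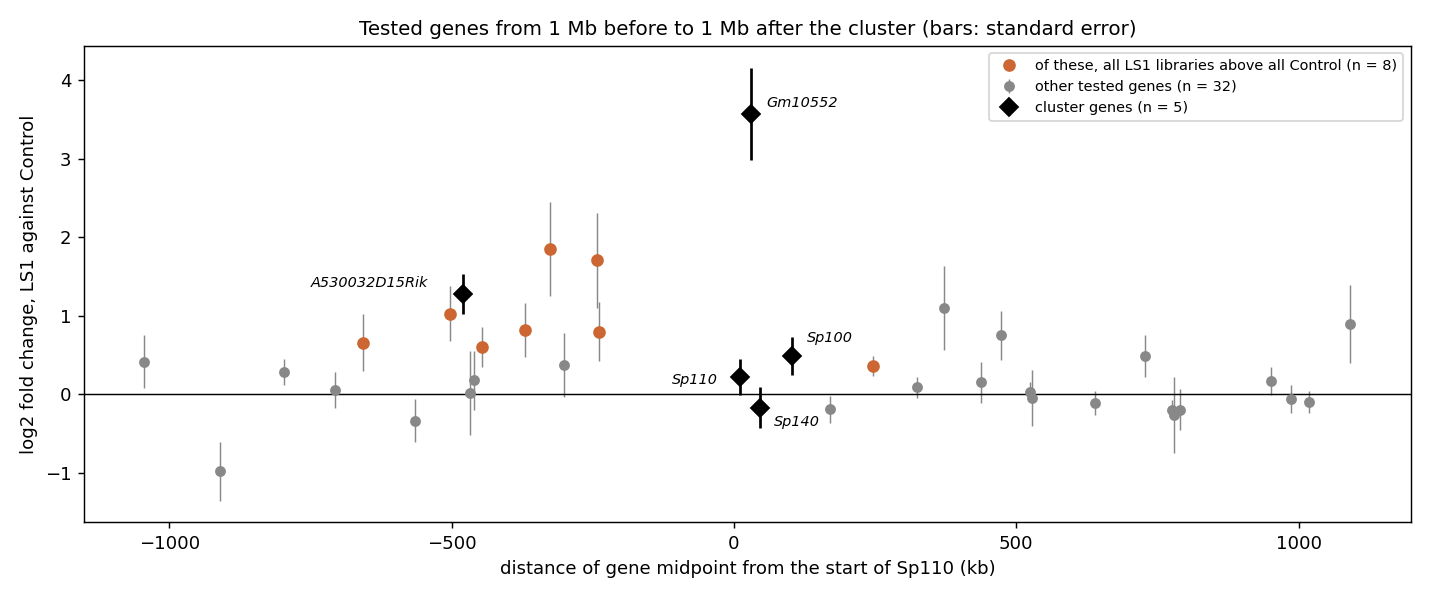
Log2 fold change of LS1 against Control (standard error as bars) for tested genes by the distance of their midpoint from the start of *Sp110* in kilobases. Cluster genes are black diamonds, and orange points are the 8 of the 32 other genes in which all LS1 libraries exceed all Control libraries; most of these lie on the side of *A530032D15Rik*, before *Sp110*.

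The stretch between *Slc16a14* and *Sp110*, where the repeat copies lie, was looked at on its own after the values were seen. Apart from *A530032D15Rik* it held 23 genes, 22 of them with a read. All of them belong to the flanking genes above, so the counts are not separate from those. In 15 of the 22 the lowest LS1 library exceeded the highest Control library, and in 0 the reverse was seen, although some of these genes had 3 reads or fewer in every library. Of the 10 tested, 6 had the higher pattern, 2 of them (*Gm16028* and *Gm16025*) having passed the limit on reads through LS1. Of the 9 untested genes with over 3 reads in a library, 7 had it. Over the whole table the pattern was seen in 10.3% of the tested genes and in 4.61% of the untested genes with over 3 reads in a library. Since the stretch was picked for its values, nothing is read from these counts. Summed over the stretch, Control libraries had 647, 629 and 657 normalized counts and LS1 libraries 926, 1347 and 752, so LS1 replicate 3 was here too the lowest of its line but above every Control library.
Several copies had next to no reads in Control. Limits were worked out only for genes with 3 reads or fewer in every Control library and over 3 in an LS1 library. Their direction is set by this choice, and the reverse case was not looked for, so nothing is read from it. With a floor of 3 reads per library for Control, LS1 was at least 4.87-fold higher for the pseudogene *Gm29284*, at least 4.14-fold for the noncoding *Gm16092* and at least 3.43-fold for *Gm2389*. Without any 1 LS1 library these limits stayed at 3.93, 3.37 and 3.26 or higher. No limit is given for *Gm7592*, with 7, 22 and 3 reads in the LS1 libraries, or *Gm15433*, with 11, 5 and 1, since leaving out 1 library moved it by over 1.5 times. *Gm29284* had 1 read at most in a Control library and 9 or more in each LS1 library. *Rpl19-ps1*, a pseudogene of a ribosomal protein in the same stretch and no copy of an SP gene, had 110.0, 147 and 134 normalized counts in Control and 85.7, 103 and 122 in LS1.

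The scaffold of *Csprs* and 3 other scaffolds assigned to chromosome 1 without a position were also looked at after the values were seen. They held 12 genes with a read, of which 4 were tested, *Csprs*, *AC133103.1*, *AC132444.1* and *AC168977.1*. Every LS1 library was above every Control library in 6 of the 12, these 4 included. *AC133103.1* and *AC132444.1* averaged under 20 reads in Control and were tested only because LS1 was high. The shares over the whole table were 10.3% of the tested genes and 4.61% of the untested genes with over 3 reads, and nothing is read from these counts either. *AC133103.1* had 10.1, 16.6 and 13.3 normalized counts in Control and 67.6, 111 and 75.6 in LS1 (log2 fold change 2.57, standard error 0.40, adjusted p = 0.0552 from limma). *AC132444.1* and *AC168977.1* differed by log2 fold changes of 1.64 and 1.06 (limma, adjusted p = 0.279 and 0.256). Like *Gm10552* and *A530032D15Rik*, the scaffold genes *AC133103.1*, *AC132444.1* and *AC168977.1* were not lower in LS1 replicate 3 than in replicate 1. *Csprs* was lower, with 134 normalized counts in LS1 replicate 3 and 321 in replicate 1.

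The closeness of the copies bears on how reads could be counted. The transcripts were cut into windows of 35 bases, the shorter read length of the libraries, and each window was looked for on either strand in all other annotated genes of the reference chromosomes. For *Sp100* 7.35% of the windows occurred in a gene at another place. For the other genes the share was 48.2% in *Sp110*, 58.2% in *Sp140*, 45.7% in *A530032D15Rik* and 53.0% in *Gm10552*. With 50-base windows the shares were 5.21%, 37.9%, 49.1%, 37.4% and 48.5% in the same order of genes. *Sp100* thus had by far the lowest share of the cluster at both lengths. Genes on scaffolds without a position, *Csprs* among them, were not part of this search, so the shares with them are not known.

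**Figure D5:**
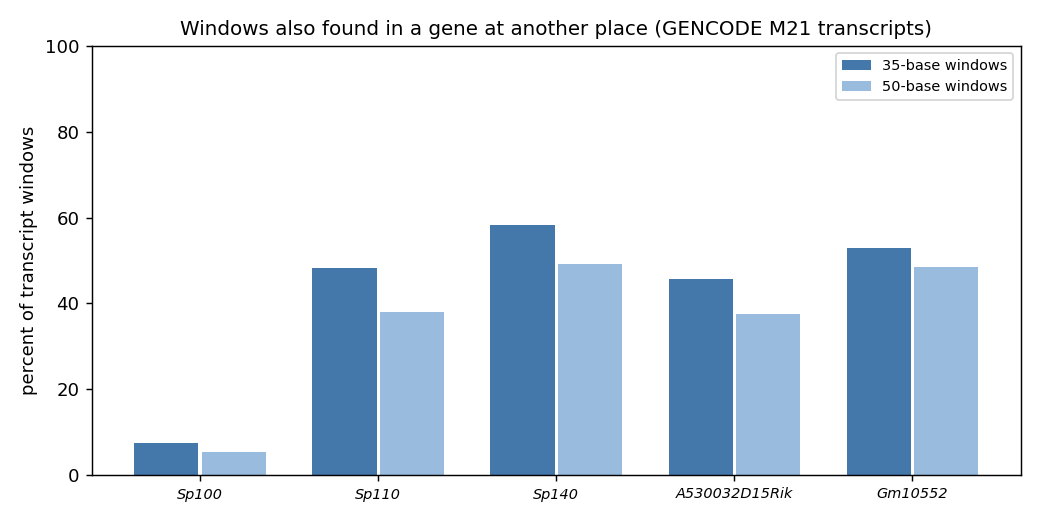
Percent of the windows of each gene's transcripts that also occur, on either strand, in an annotated gene at another place on the reference chromosomes. Dark bars are windows of 35 bases and light bars of 50 bases. *Sp100* is at 7.35% and 5.21%, and the other genes lie between 37.4% and 58.2%.

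The partners of these windows differed. *Sp140* shared 17.7% of its 35-base windows with *A530032D15Rik*, which is 37.7% of the windows of the latter. It shared 25.1% with *Arhgef12*, a signalling gene on chromosome 9 that contains the processed pseudogene *Gm5831*. These were 7.94% of the windows of *Arhgef12*. *A530032D15Rik* shared 13.1% of its own windows with *Arhgef12*. *Arhgef12* had 11978 ± 1372 normalized counts in Control and 11283 ± 1279 in LS1 (SD, n = 3 each), far above *Sp140*. *Sp110* shared 33.9% with the pseudogene *Gm16026*. *Gm10552* shared 52.7% with *A530040E14Rik* and none with *Sp140*, on whose opposite strand it lies. *A530032D15Rik* also shared 29.8% of its windows with *C130026I21Rik*, which covers it on the same strand. Whether the counting used strand, and how reads with several matches were treated, is not given in the sources used here. The levels of *Sp110*, *Sp140*, *A530032D15Rik* and *Gm10552* are therefore uncertain. For *Sp100*, sharing with genes on the scaffolds was not looked at. The part of shared reads in the differences between the lines was not tested.

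The genes whose pattern over the 6 libraries was most like that of each cluster gene were found from log2(value + 1) centred on its mean, as the root mean square difference. For *Sp100* these were *Igsf1* (0.105), *Sema3e*, *Nabp1*, *Gm11110* and *Snap91* (0.117). For *Sp110* they were *Abhd3* (0.075), *Usp27x*, *Bcl2a1d*, *B430306N03Rik* and *Nxph4* (0.107), and for *Sp140* *Gm5297* (0.063), *Prdm9*, *Ifi209*, *Dtna* and *Myocd* (0.103). *Sp100* ranked 351 among the genes nearest to *Sp110*, and *Sp110* ranked 267 among those nearest to *Sp100*, so many genes outside the cluster followed each of them more closely.
For *A530032D15Rik* the nearest were *Sirpb1a* (0.147), the scaffold gene *AC168977.1* (0.156), *F9*, *Mirlet7b* and *Mfsd13b* (0.194). For *Gm10552* they were *B4galnt2* (0.423), *Ighv1-62*, *Tpsab1*, *Tpm3-rs7* and *Csprs* (0.740). The distance is a description over 6 libraries.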

How the data were processed

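The authors mapped paired reads of polyadenylated RNA to GRCm38 (Ensembl release 84) with HISAT2 2.0.2, and featureCounts 1.4.6 gave the count of each gene. The deposited signal is this count divided by 1 size factor per library. Reads were recovered as multiples of the smallest value, and 100% came out whole within 0.001; in Control replicate 1 the step was too near 1 to tell reads from rounded values. The 6 columns of the table were all used. Replicates of a line differed by far more than sampling noise (chi-square per degree of freedom 38.6 to 145). Genes with a mean of at least 20 reads were fitted with limma 3.58.1 (R 4.3.3) on log2(value + 1), with trend and robust moderation and Benjamini-Hochberg adjustment, after a test on simulated data. Called means an adjusted p-value under 0.05. With 3 mice per line an exact permutation test cannot go below p = 0.1, so none was run. Alternatives were DESeq2 1.42.0 and edgeR 4.0.16 on recovered reads, other scalings, pseudocounts and filters, a replicate block and each library left out. Names and coordinates came from GENCODE M21, which named 99.1% of the identifiers; promoters came from RefSeq. The genes and gene lists were chosen with earlier results of these data known. Named genes are the 5 cluster genes, tested relatives, the 3 genes of smallest p in each other list, genes by role and the 5 genes nearest in pattern; others were chosen after their values were seen, and the values of some genes under this rule are not reported here. Of the relatives, *5830484A20Rik*, *Sp140l1* and *Sp140l2* could not be matched to a row by symbol, and rows under other names were not looked for.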

Additional observations from a re-analysis of the deposited data

How the results depend on the processing

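The number of genes called between LS1 and Control was 14 with limma, 456 with DESeq2, 7 with edgeR, 5 with edgeR without Control replicate 1 (a fit chosen after seeing the data) and 45 without a filter on low reads. Leaving out 1 library in turn gave 5 to 324 calls, with 324 without LS1 replicate 3, 46 without LS1 replicate 1, 9 without Control replicate 1 and 5 without Control replicate 2. Among the relatives of the SP genes 1 was called with DESeq2 and 1 without the filter, and 0 to 1 with a library left out, the 1 without LS1 replicate 3. Of the interferon-stimulated genes 13 were called with DESeq2 and 0 to 28 with a library left out, 28 without LS1 replicate 3. Genes of the PML list and flanking genes had 0 calls in each of the 15 alternatives. The cause of these differences was not tested. The fold changes of *Sp100*, *Sp110*, *A530032D15Rik* and *Gm10552* kept their sign in each alternative that gave a value, while that of *Sp140* turned from -0.17 to 0.14 without LS1 replicate 3. With a library left out the log2 fold change ran from 0.29 to 0.82 for *Sp100*, 0.01 to 0.48 for *Sp110*, -0.40 to 0.14 for *Sp140*, 1.11 to 1.42 for *A530032D15Rik* and 3.04 to 4.17 for *Gm10552*. *Gm10552* gave no value at a mean of at least 50 reads. The sample titles share a letter between the lines. Deviations of same-letter libraries correlated at 0.054, 0.021 and 0.224, and those of different-letter libraries at -0.147 to 0.116. The same-letter values were not all over 0.1, so the letter was not taken as a pairing. With the letter as a replicate block 12 genes were called, and no call of a list changed. Unadjusted p-values under 0.05 from limma went from 2499 to 3377 tested genes and from 11 to 17 interferon-stimulated genes. With 3 mice per line 1 library could move a count this far, and *Gm10552* had few reads in Control.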
